A study of Homo sapiens with 6 samples.

Results

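The circadian clock genes described here are PER1, PER2, PER3, CRY1, CRY2, CLOCK, NR1D1, NR1D2, DBP and TEF, chosen by their gene symbols. No measured value was a criterion, but earlier results of these data were known when the genes were chosen. All 10 were found, each once, among the 28395 genes of the authors' table. RNA sequencing was performed on A375 cells, an established human melanoma line labelled as wild type, cultured in medium with fetal bovine serum. The cells received 0.01% olive oil (OLO, the control oil, 3 libraries) or 0.01% ozonated olive oil (OZO, 3 libraries), and RNA was taken after 6 h in both groups. No untreated cells and no other time point were among the samples used here, and the labels do not say whether the 3 libraries of a group came from separate cultures. The study describes part of its A375 transcriptome values as means over independent experiments.

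For each gene, the value used was the authors' mean log2 CPM (CPM being read counts scaled to a common library size) over all 6 libraries, OLO and OZO together. It describes how strongly a clock gene was read in this experiment as a whole. The authors' table also gives the difference between OZO and OLO for each gene, but only as statistics of their own comparison, which were not used. No values per library were analysed here, so no difference between OLO and OZO is given for any clock gene, and the spread between libraries is unknown.

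The circadian clock is a loop of transcription in which the CLOCK and BMAL1 proteins, bound as a pair to E-box sequences, switch on the PER and CRY genes. The PER and CRY proteins then enter the nucleus and repress CLOCK and BMAL1. A second loop runs through the nuclear receptors REV-ERBα and REV-ERBβ, encoded by NR1D1 and NR1D2, which repress BMAL1, while the ROR receptors activate it from the same response elements. DBP and TEF belong to the PAR-bZIP factors, which pass the rhythm on to output genes through D-box sequences, and melanocytes and skin cells are known to run such clocks.

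RefSeq promoter windows of GRCh38.p14, from 250 bases before to 50 bases after the annotated start, were matched for all 10 genes. The 3 windows below are shown because they hold the exact letters of the E-box CACGTG or the D-box TTATGTAA. Clock proteins act through elements of these kinds. Each is written 5′ to 3′ on the strand of its gene, with the matched motifs in capitals. In the PER1 window (chr17:8152355-8152654, minus strand) the capitals mark an E-box, CACGTG, and after it the hexamer AGGTCA read from the other strand. In the TEF window (chr22:41367205-41367504, plus strand) they mark an E-box, and in the PER3 window (chr1:7784041-7784340, plus strand) a D-box, TTATGTAA.
PER1: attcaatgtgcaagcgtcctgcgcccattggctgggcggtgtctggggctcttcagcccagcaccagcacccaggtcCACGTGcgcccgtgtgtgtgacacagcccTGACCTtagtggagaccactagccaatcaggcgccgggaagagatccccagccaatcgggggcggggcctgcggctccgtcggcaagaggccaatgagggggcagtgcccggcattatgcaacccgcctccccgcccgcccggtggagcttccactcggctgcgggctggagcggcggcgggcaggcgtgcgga
TEF: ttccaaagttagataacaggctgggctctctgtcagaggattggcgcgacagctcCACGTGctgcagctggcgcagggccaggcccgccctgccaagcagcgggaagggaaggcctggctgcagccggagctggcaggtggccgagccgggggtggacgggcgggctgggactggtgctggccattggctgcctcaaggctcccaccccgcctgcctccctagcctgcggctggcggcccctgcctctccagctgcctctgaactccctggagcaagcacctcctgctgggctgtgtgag
PER3: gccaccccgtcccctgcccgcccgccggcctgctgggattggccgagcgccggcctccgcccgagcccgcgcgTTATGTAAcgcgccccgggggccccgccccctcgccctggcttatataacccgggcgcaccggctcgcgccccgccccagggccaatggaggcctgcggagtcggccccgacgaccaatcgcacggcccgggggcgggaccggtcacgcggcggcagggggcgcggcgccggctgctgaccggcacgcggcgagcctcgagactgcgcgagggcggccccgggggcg

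The E-box CACGTG, which reads the same on both strands, was present in 2 of the 10 promoters, PER1 and TEF, and in 7.43% of 27305 RefSeq promoters of the same length. It began at position −173 from the start in PER1 and at −195 in TEF. The D-box TTATGTAA, searched on both strands, was present in 1 promoter, that of PER3, at position −177, and in 0.912% of all promoters. The hexamer AGGTCA, the core of the element that REV-ERB and ROR receptors bind, was found on either strand in PER1 and CRY2, and in 13.9% of all promoters. Its longer form TAGGTCA was in 0 of the 10 and in 1.87% of all promoters. These are matches of letters in a window of 300 bases, and motifs farther from the start or in other promoters of the same gene were not searched. Apart from the looser E-box search given at the end, variant forms of the E-box and D-box were not searched either. A window without a match is therefore not shown to lack such an element.

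The 10 promoters had a median GC content of 69.0%, against 58.3% over all promoters, and ranged from 46.3% in CRY2 to 80.7% in PER3. Their median ratio of observed to expected CpG was 0.925, against 0.58 over all promoters. The lowest ratios were those of CRY2 (0.385) and TEF (0.393), and the highest was that of PER2 (1.30). The PER2 window lies inside the annotated span of the gene, since RefSeq annotates another start upstream of it.

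The depth behind the values was recovered from the table itself. A mean log2 CPM at the lowest value, −5.20, means that none of the libraries held a read, and with the 0.5 that voom adds to each count it puts the geometric mean of the library sizes at 18409903 fragments. At that depth 21383 genes had a read, and 13773 averaged 10 reads per library or more. A mean number of reads per library, on the log scale of the authors' mean, was derived for each clock gene. Its 95% Poisson interval, taken over the 6 libraries, covers counting error only. The melanocyte-lineage markers SOX10 and MITF were read, with implied means of 919 and 499 reads per library, while TYR was listed with no read and PMEL (5.75 reads) and DCT (4.74 reads) were low. Of the 9 melanocyte markers, 6 had at least 10 reads, and the pigment genes were uneven, with MLANA at 36.6 and TYRP1 at 11.0 reads above that minimum and TYR, PMEL and DCT below it. The label thus held for the lineage transcription factors and in part for the pigment genes. Of the other marker lists, 2 of 4 keratinocyte markers (KRT10 with 469 and KRT14 with 77.5 reads), 2 of 4 fibroblast markers (LUM with 87.6 and COL1A1 with 22.3 reads) and 0 of 3 leukocyte markers reached 10 reads.

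All 10 clock genes were expressed. Their levels ran from 0.60 log2 CPM for DBP to 7.37 for NR1D2, a range of 6.77 on the log2 scale. The median was 3.04 log2 CPM, against 1.96 over all genes with a read and 4.47 over genes with at least 10 reads. Of the 10, 9 lay above the median of all genes with a read, and 3 (NR1D2, CLOCK and CRY1) above the median of genes with at least 10 reads. Only CLOCK and NR1D2 exceeded 1000 reads per library, 7 of the 10 exceeded 100, and DBP was the single clock gene under 30. The shares of all genes beyond these cuts were not computed. The median of the 10 was 154 reads, against 71.1 over all genes with a read and 406 over genes with at least 10 reads.

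**Figure D1:**
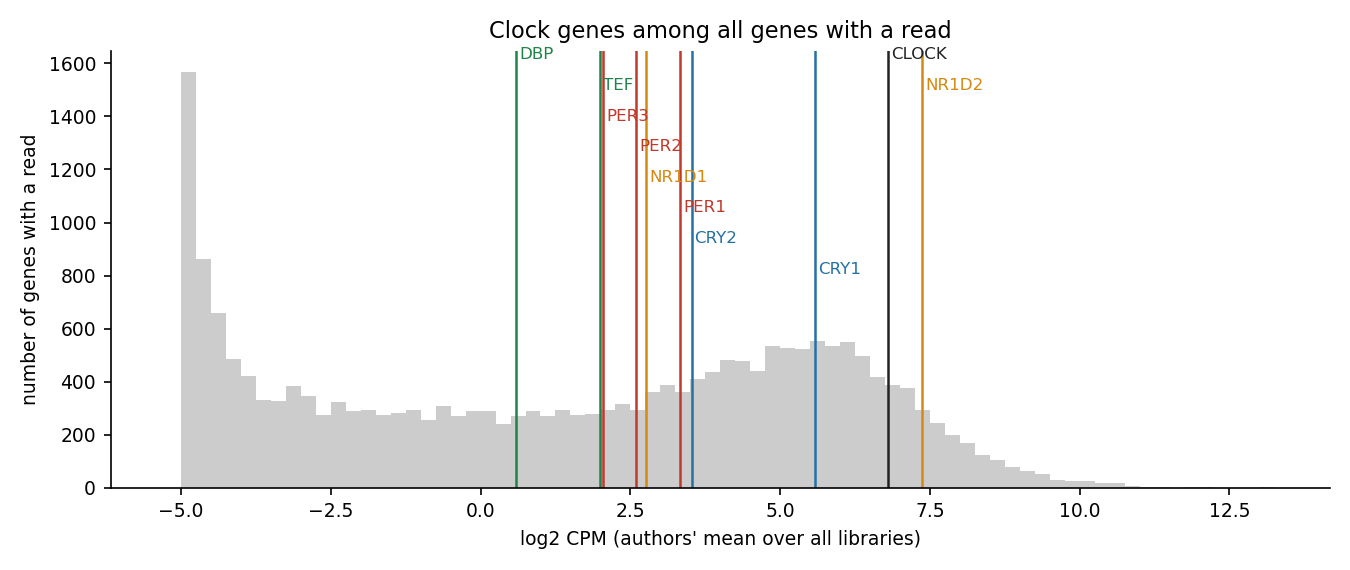
Histogram of the authors' mean log2 CPM (x axis) over all 21383 genes with a read, with the number of genes in each bin of 0.25 log2 units on the y axis. Coloured lines mark the 10 clock genes, of which NR1D2, CLOCK and CRY1 stand to the right of the others and DBP stands to the left.

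Among the activators, CLOCK (NCBI Gene 9575, chromosome 4, 55427903 to 55546909, minus strand) encodes the bHLH-PAS partner of BMAL1. CLOCK had 6.80 log2 CPM, or an implied 2051 reads per library (95% Poisson interval 2015 to 2087), and lay above 90.0% of genes with a read. Part of this number comes from the length of its transcript, 10470 bases in 23 exons, the longest of the 10. Per kb of transcript CLOCK had 3.41 log2 CPM and lay above 72.1% of genes. Its partner gene BMAL1 had 3.76 log2 CPM and 250 reads, and 2.29 log2 CPM per kb. The paralog NPAS2, which can take the place of CLOCK, had 5.29 log2 CPM, and per kb it stood 0.13 log2 units below CLOCK. That small gap rested on the transcript chosen, as it was 1.62 with all annotated exons of each gene merged and 1.12 with the longest transcript. BMAL2 had 4.91 log2 CPM, or 2.13 per kb, so BMAL1 was the least read of these 4 activator genes per gene. Per kb the order of BMAL1 and BMAL2 turned with the transcript, the difference of BMAL2 minus BMAL1 being −0.16 log2 units on the canonical transcripts, 1.14 with exons merged and 0.31 with the longest transcript. The gap per kb between CLOCK and BMAL1 was 1.13, 2.30 and 1.60 log2 units on the same 3 lengths.

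The period genes encode the PAS-domain repressors of the loop. PER1 (Gene 5187, chromosome 17, 8140472 to 8152404, minus strand) had 3.33 log2 CPM and an implied 184 reads (173.6 to 195.4). PER2 (Gene 8864, chromosome 2, 238244044 to 238300065, minus strand) had 2.59 log2 CPM and 111 reads (102 to 119). PER3 (Gene 8863, chromosome 1, 7784291 to 7845177, plus strand) had 2.05 log2 CPM and 75.7 reads (68.9 to 83). The order was thus PER1, PER2, PER3, and it was the same per kb of transcript, where the 3 levels were 1.10, −0.08 and −0.62 log2 CPM. Per kb, PER1 was 2.27-fold above PER2 and PER2 was 1.46-fold above PER3, with counting errors of 0.07 and 0.09 on the log2 scale. In the mean over OLO and OZO libraries, all PER genes therefore lay within a 3.30-fold range per kb. Whether this held in each group or at another time point was not tested. Per kb, PER3 lay above 39.0% and PER1 above 50.3% of genes with a read and a known length. The position depended on the background. Per gene, among genes with at least 10 reads, it ran from above 23.2% for PER3 to above 35.5% for PER1.

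The cryptochromes, the partners of PER in repression, were unequal. CRY1 (Gene 1407, chromosome 12, 106991364 to 107093549, minus strand) had 5.58 log2 CPM, or 880 reads (856 to 904). CRY2 (Gene 1408, chromosome 11, 45847118 to 45883244, plus strand) had 3.52 log2 CPM, or 211 reads (199 to 223). CRY1 stood 2.06 log2 units above CRY2 per gene, and 2.53 log2 units (5.76-fold) above it per kb of transcript, with a counting error of 0.05. CRY1 was also 7.46-fold above PER1 per kb, so that CRY1 was the most strongly read of the 5 PER and CRY genes.

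The REV-ERB genes were far apart. NR1D2 (Gene 9975, chromosome 3, 23945286 to 23980617, plus strand) encodes REV-ERBβ and had 7.37 log2 CPM, or 3041 reads (2997 to 3086). It lay above 93.8% of genes with a read and was the highest of the 10 on both scales. NR1D1 (Gene 9572, chromosome 17, 40092793 to 40100589, minus strand) encodes REV-ERBα and had 2.76 log2 CPM, or 124 reads (116 to 134). NR1D2 exceeded NR1D1 by 4.61 log2 units per gene and by 3.61 log2 units (12.2-fold) per kb, with a counting error of 0.05. Of the ROR receptor genes, whose products act on the same elements, RORA had 4.71 log2 CPM and RORB 3.33. Per kb, NR1D2 was 13.1-fold above RORA, and RORA (1.27 log2 CPM per kb) and NR1D1 (1.37) were within 0.09 log2 units of each other. With all annotated exons merged, RORA had 0.62 log2 CPM per kb and NR1D1 kept 1.37.

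The PAR-bZIP genes DBP and TEF stood at the low end per gene, although TEF and PER3 were within counting error of each other. Per kb of canonical transcript PER3 lay below both, but its gap to DBP, 0.10 log2 units, was within counting error. With the longest transcript, DBP (−1.93 log2 CPM per kb) lay below PER3 (−0.62). TEF (Gene 7008, chromosome 22, 41367455 to 41399326, plus strand) had 1.998 log2 CPM, or 73.0 reads (66.4 to 80.2). DBP (Gene 1628, chromosome 19, 48630030 to 48637379, minus strand) had 0.60 log2 CPM, or 27.4 reads (23.4 to 31.9). TEF exceeded DBP by 1.40 log2 units per gene but by 0.39 per kb, because the canonical DBP transcript is short, at 2170 bases against 4381 for TEF. With the longest annotated transcript of each gene, 5756 bases for DBP, the gap per kb became 1.79. The third family member, HLF, had an implied 2.92 reads per library (1.71 to 4.64), and per kb it stood 4.81 log2 units below TEF. NFIL3, a bZIP repressor of the same D-box elements, had 4.30 log2 CPM, and per kb it stood 3.39 log2 units (10.5-fold) above TEF.

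**Figure D2:**
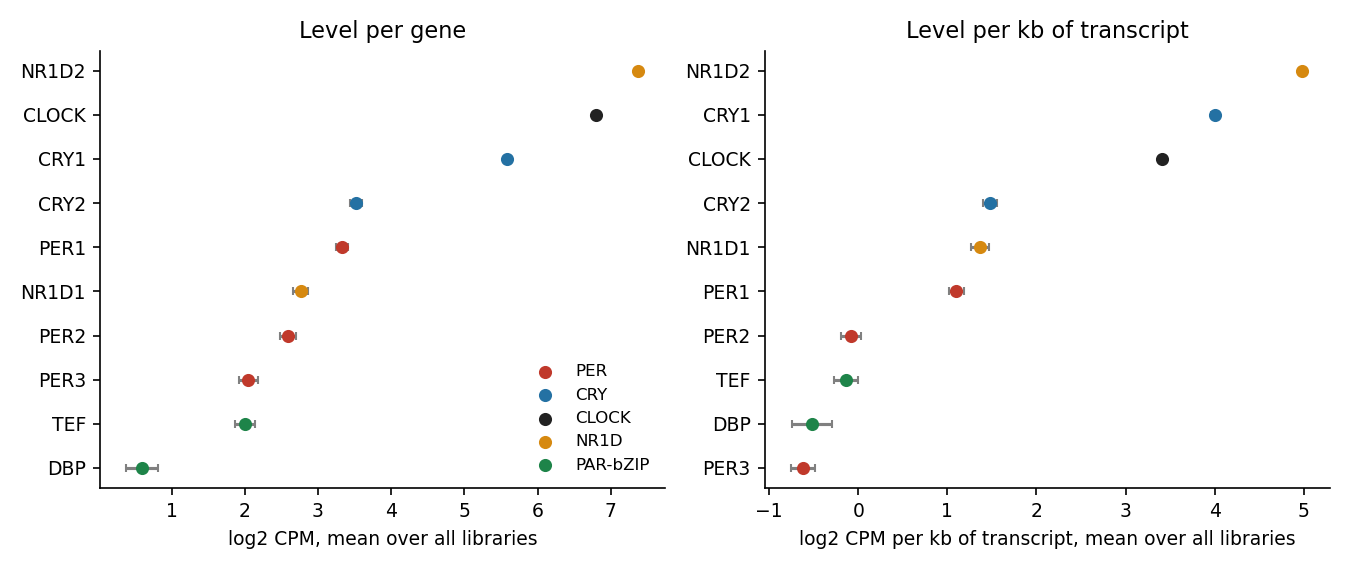
Levels of the 10 clock genes per gene (left, log2 CPM) and per kb of canonical transcript (right, log2 CPM per kb), each point being the authors' mean over all 6 libraries, coloured by family. Bars are 95% limits from counting error alone and do not hold the spread between libraries. NR1D2 is highest in both panels. The lowest gene is DBP per gene (0.60) and PER3 per kb of canonical transcript (−0.62), where PER3 is within counting error of DBP.

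From highest to lowest per kb of canonical transcript, the order was NR1D2, CRY1, CLOCK, CRY2, NR1D1, PER1, PER2, TEF, DBP and PER3. Of its 9 steps, 3 were within counting error, namely CRY2 to NR1D1, PER2 to TEF and DBP to PER3. The widest step was that from CLOCK to CRY2, at 1.94 log2 units, which separated NR1D2, CRY1 and CLOCK from the other 7 genes. The lower part of this order turned with the length used. With all annotated exons merged, DBP (−2.10 log2 CPM per kb) lay below PER3 (−0.97), and NR1D1 (1.37) lay above CRY2 (0.89). With the longest transcript, DBP (−1.93) again lay below PER3 (−0.62). Per gene the order was NR1D2, CLOCK, CRY1, CRY2, PER1, NR1D1, PER2, PER3, TEF and DBP, and only the step from PER3 to TEF was within counting error. Since the spread between libraries is unknown here, a step beyond counting error is not shown to exceed that spread.

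Beside them, 18 other clock genes were looked up from a list. All 18 were in the table, and 16 had at least 10 reads per library, as had 13773 of all 28395 genes. The median of the 18 was 4.50 log2 CPM, or 2.21 per kb, against 1.23 per kb for the 10 genes above. The levels of genes that act on PER proteins were uneven. GSK3B, a kinase, had 7.60 log2 CPM, and FBXW11, a subunit of the ligase that marks PER for destruction, had 7.26. CSNK1D, which encodes the PER kinase CK1δ, had 6.54 log2 CPM, whereas CSNK1E, the gene of CK1ε, had 0.89. CSNK1E shares 1316 exon bases on the same strand with the read-through gene TPTEP2-CSNK1E, which had an implied 0.50 reads, and the part of that overlap in the low count was not tested. The repressors BHLHE40 and BHLHE41, which compete for E-boxes, had 4.92 and 2.18 log2 CPM. The 2 genes under 10 reads were HLF and CIART, the last a repressor of CLOCK and BMAL1 with 8.74 reads. The remaining listed genes were TIMELESS with 6.52 log2 CPM, BTRC with 5.72, PPARGC1A with 1.08 and USP2 with 0.01.

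**Figure D3:**
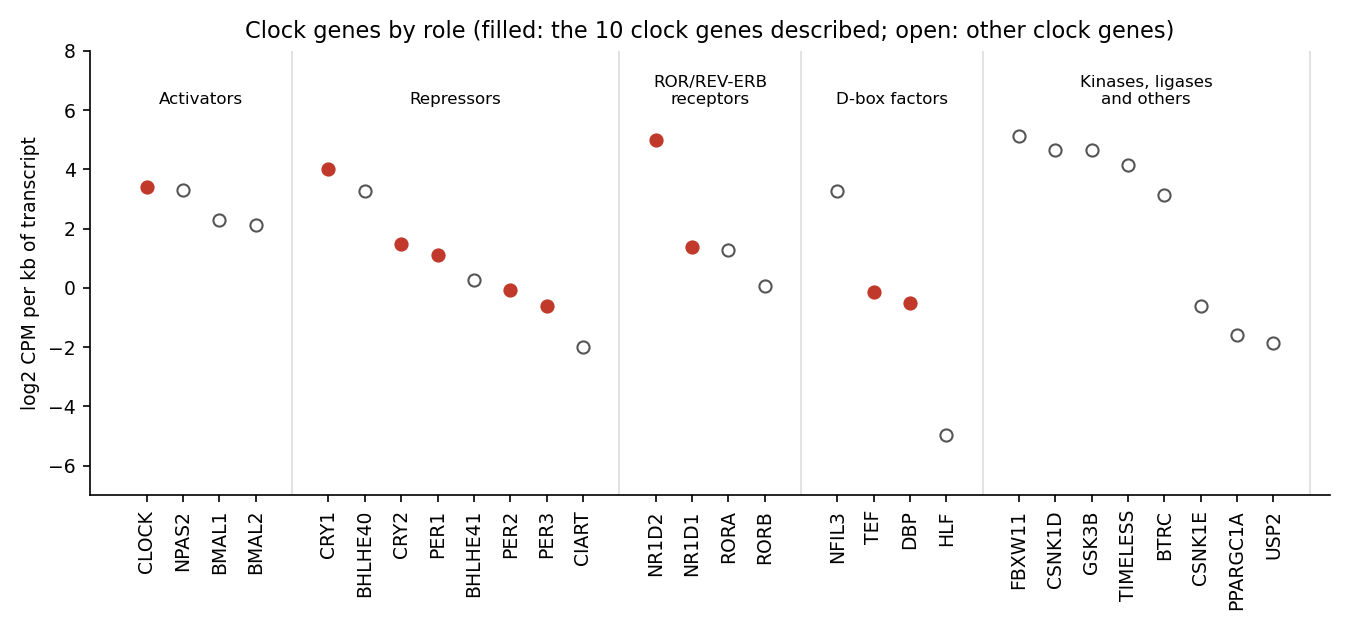
Level per kb of canonical transcript (y axis, log2 CPM per kb, authors' mean over all 6 libraries) of the 10 clock genes (filled) and 18 other clock genes (open), grouped by role along the x axis. NR1D2 (4.98) and CRY1 (4.001) head their groups, and the D-box factors DBP and TEF lie below NFIL3 (3.26), which represses through the same D-box elements.

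How well the reads of each gene could be assigned was then examined on GENCODE 44. The annotation used in counting is not given in the sources used here, so the overlaps and exons in it may differ. The libraries were made with a kit that keeps strand, but whether strand was used in counting is not given in the sources used here, so overlaps on the opposite strand matter. DBP was the most exposed by shared sequence, as 26.6% of the 50-base stretches of its canonical transcript also lie in SPHK2 transcripts. DBP exons overlap exons of SPHK2 on the opposite strand over 661 bases, or 10.2% of all annotated DBP exon bases. By that measure the overlap of NR1D1 with THRA (18.0%) and that of PER3 with UTS2 (10.7%) were larger. SPHK2 had an implied 178 reads against 27.4 for DBP. NR1D1 overlaps THRA, the thyroid hormone receptor alpha gene, tail to tail over 473 exon bases, and 14.8% of its stretches were shared, with THRA at 166 reads. PER3 shared 17.5% of its stretches with UTS2, at 1.90 reads, and with an antisense long non-coding RNA. For CRY1 and CLOCK the share was 1.57% and 0.278%, and for PER1, CRY2, NR1D2 and TEF it was 0%. Over all annotated exons, however, PER1 overlaps MIR6883 (78 bases, an implied 0.10 reads) and a further protein-coding gene (30 bases) on the same strand. PER2 shared 3.92% of its stretches, and its canonical transcript was the only one of the 10 with same-strand 50-base matches (1.47%), in all over 456 other genes. No 50-base stretch was shared between paralogs such as CRY1 and CRY2 or NR1D1 and NR1D2. The part of these overlaps in the levels was not tested, and the counting intervals of DBP, NR1D1 and PER3 do not cover it.

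**Figure D4:**
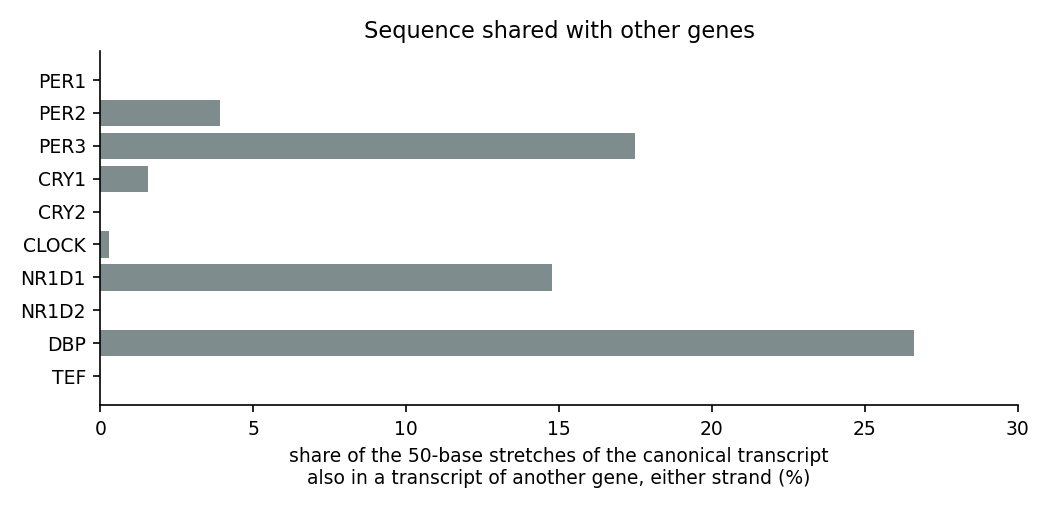
Share of the 50-base stretches of each canonical transcript that also occur in a transcript of another gene on either strand (x axis, %), for the 10 clock genes (y axis). DBP (26.6%), PER3 (17.5%) and NR1D1 (14.8%) stand apart from the other 7, which are at or below 3.92%.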

How the data were processed

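RNA libraries of OLO- and OZO-treated A375 cells (3 each) were made with a directional kit and sequenced as paired ends. According to the methods and the submitters' processing notes, the authors aligned reads to hg38 with HISAT2 2.1.0, counted them per gene with featureCounts 2.1.1 and ran limma-voom 3.58.1. The deposited log2 values used here are the authors' means over all 6 libraries of log2 CPM, computed by voom with 0.5 added to each count. Normalization factors and filters are not given in the sources used here. The 5 other numeric columns hold the authors' own comparison (fold change, moderated t, p-value, adjusted p-value and log-odds) and were not used, so the planned test of OZO against OLO was not run.

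Depth was recovered from the 11518 genes with the lowest values. Raised to the power of 2 after multiplication by 6, their height above the lowest value was an odd whole number for 100% of them, within a relative tolerance of 1e-06. Recovery was tested on simulated Poisson counts around a single level per gene. They held no difference between OLO and OZO and no further spread between libraries, so the test does not cover these. Levels per kb used the canonical transcript of GENCODE 44 (25497 genes matched by Ensembl identifier), without correction for fragment length. Coordinates and promoters are those of RefSeq on GRCh38.p14. Alternatives were other lengths, gene backgrounds, read minimums and motif definitions. The genes, lists and alternatives were chosen with earlier results of these data known. All 10 clock genes and 18 listed others were to be named whatever their values, and a few further listed genes are not reported here. The overlap of transcripts in 50-base stretches was added later. Python 3.11.15, pandas 2.3.3 and scipy 1.17.1 were used.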

Additional observations from a re-analysis of the deposited data

How the results depend on the processing

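No paired analysis was possible because only a mean over all libraries was used. For the same reason a count-based test, other pseudocounts and filters, and leaving out each replicate in turn were not run, and protein identity within families was not computed. Of 21 alternative values, 8 stayed within counting error, within 1.5 times of a count or equal, 13 moved and 0 changed sign. Some of the 8 were fixed in advance and show no stability. The E-box CACGTG reads the same on both strands, and the alternative library size uses the same relation as the main value. The canonical transcripts of NR1D1, NR1D2 and PER1 are also their longest, and NR1D1 and PER1 set the median level per kb. Counts, percentiles and the library size cannot change sign, and the gaps among the 21 compared only genes of the same family. The pairs DBP and PER3, CRY2 and NR1D1, and BMAL1 and BMAL2, whose order per kb turned with the length used, were not among them. The absence of a changed sign therefore does not extend to the order per kb.

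With all annotated exons merged, the median level of the 10 genes became 0.70 log2 CPM per kb in place of 1.23, and the gaps per kb became 0.75 for PER1 over PER2, 0.74 for PER2 over PER3, 2.43 for CRY1 over CRY2, 3.47 for NR1D2 over NR1D1 and 1.86 for TEF over DBP. With the longest transcript, the gap of NR1D2 over NR1D1 could not change, as the canonical transcript of each is its longest. Among the PER genes only the length of PER2 differed (6596 against 6380 bases), and both PER gaps stayed within counting error. With the same length, CRY1 over CRY2 became 2.19 and TEF over DBP 1.79. These shifts follow from the lengths alone. The median position of the 10 genes was above 56.5% of genes with a read, 32.5% of genes with at least 10 reads, 67.3% of all genes and, per kb, 51.3% of genes with a read and a known length. Allowing any core in the E-box (CANNTG) raised the promoters that hold it from 2 to 6 of 10, against 68.9% of all promoters. The hexamer AGGTCA on the gene strand alone was in 1 promoter in place of 2. Depth limits DBP most, with a counting error of 0.11 log2 units, against 0.01 for NR1D2.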
